A study of Mus musculus with 31 samples.

Results

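The hotspots described here are the meiotic DNA double-strand break hotspots of mouse testis that lie in or near olfactory receptor genes. In each of 26 hotspot lists, a hotspot was taken when its centre, on chromosomes 1 to 19, lay within 50000 bp of a gene whose symbol starts with Olfr in the RefSeq annotation of GRCm38.p6. The annotation placed 1420 such genes on the autosomes, 1104 of them protein-coding and 315 pseudogenes, and their windows merged into 89 stretches of 35.6 Mb in all, which is 1.45% of the autosomes. These windows held 2983 of the 414683 hotspots in the lists (0.761% of the 392225 autosomal hotspots). The other 2425 Mb of the autosomes are called the rest.

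Breaks were mapped by DMC1 SSDS, in which DNA bound by DMC1, the meiotic recombinase that loads on the single-stranded ends of breaks, is recovered from testis and sequenced as single-stranded DNA. Each list came from 1 library, and each genotype had 1 library, so differences between any 2 lists have no replicate check and tests were made over sets of lists. The inbred strains were 13R (B10.F-H2pb1/(13R)J), B6 (C57Bl/6J), C3H (C3H/HeJ), PWD (PWD/PhJ), CAST (CAST/EiJ) and MOL (MOLF/EiJ), and 19 lists came from F1 crosses among them, named with the mother first (B6fXMOLm had a B6 mother and a MOL father). The last list, Prdm9-/-, came from B6;129P2-Prdm9<tm1Ymat>/J mice, which lack PRDM9. The labels give no age and no treatment and do not say if a library pooled several males. Testis holds many cell types, and hotspot lists carry no marker levels against which the label could be checked. The series text withdraws a sample labelled as a cross of CAST and 13R, and the sample it names carries the label CAST here; values for CAST rest on that label. The inbred lists held 13501 to 18130 autosomal hotspots, the F1 lists 9748 to 18270 and the Prdm9-/- list 29991, and the read depth behind them is unknown, so every density is read against the rest of the same list.

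Olfactory receptors are the odorant-binding membrane receptors of nasal sensory neurons and form a very large mammalian gene family. Their genes are short, usually carry the whole coding sequence in a single exon, lie side by side in large clusters with many pseudogenes, and are silent in most tissues. PRDM9 is the zinc-finger protein that sets where mouse recombination starts: it binds DNA motifs that differ between its alleles and trimethylates histone H3 at nearby nucleosomes, so strains with different alleles use different hotspots. In mice without PRDM9, breaks form instead at other sites with this histone mark, among them promoters. Vomeronasal receptors (Vmn1r and Vmn2r), the pheromone receptors of the vomeronasal organ, are a separate clustered receptor family and serve here as a comparison.

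The 4 sequences that follow, each just upstream of a receptor gene, show the kinds of site compared below. RefSeq promoter sequences of GRCm38.p6 were matched for 938 receptor genes (942 promoters of 300 bases, 250 before and 50 after the annotated start); the 250 bases before the start are printed 5′ to 3′ on the strand of the gene, with each CG dinucleotide in capitals. Olfr1223 (chr2:89151337-89151586, minus strand) is the receptor promoter with hotspot centres in the most lists. Olfr212 (chr6:116506266-116506515, plus strand) and Olfr750 (chr14:51071443-51071692, minus strand) carry the most and the next most CG among receptor promoters overlapped by a Prdm9-/- hotspot. Olfr1093 (chr2:86782295-86782544, plus strand) has the median GC content of receptor promoters and no hotspot in any list.
Olfr1223: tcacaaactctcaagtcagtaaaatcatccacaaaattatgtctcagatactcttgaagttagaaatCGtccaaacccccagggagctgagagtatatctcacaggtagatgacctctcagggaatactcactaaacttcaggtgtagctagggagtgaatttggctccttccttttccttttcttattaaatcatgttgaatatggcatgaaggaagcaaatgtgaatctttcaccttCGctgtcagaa
Olfr212: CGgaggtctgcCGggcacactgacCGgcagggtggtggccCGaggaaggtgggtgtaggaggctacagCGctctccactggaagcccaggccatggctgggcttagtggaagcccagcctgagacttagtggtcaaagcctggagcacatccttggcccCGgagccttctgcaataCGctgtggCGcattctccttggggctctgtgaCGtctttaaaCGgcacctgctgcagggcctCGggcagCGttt
Olfr750: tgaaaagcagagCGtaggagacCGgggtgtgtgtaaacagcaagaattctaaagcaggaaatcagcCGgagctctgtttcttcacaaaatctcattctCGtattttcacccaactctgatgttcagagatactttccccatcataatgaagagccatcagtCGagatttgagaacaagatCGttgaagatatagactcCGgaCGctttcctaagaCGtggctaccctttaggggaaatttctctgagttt
Olfr1093: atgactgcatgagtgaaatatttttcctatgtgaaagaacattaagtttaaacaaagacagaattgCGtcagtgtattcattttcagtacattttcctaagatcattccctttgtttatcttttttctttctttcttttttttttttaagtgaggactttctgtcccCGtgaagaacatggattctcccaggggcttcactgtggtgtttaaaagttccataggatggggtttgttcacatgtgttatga
The stretch before Olfr1223 has 2 CG, as has that before Olfr1093, against 12 before Olfr212 and 9 before Olfr750. The Olfr1223 promoter held a hotspot centre in MOL and in all 6 crosses with a MOL parent, and in no other list.

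Receptor promoters as a group are poor in G, C and CG. Their median GC content was 35% against 53.3% in 30454 promoters of other autosomal genes, and the median number of CG (letters CG, which read the same on both strands) was 1 against 8. CG occurred at least once in 66.5% of receptor promoters and in 95.6% of the others. For 680 of the 942 (72.2%) the annotated start is directly followed by ATG, against 3.41% of the others, so the annotated start is then the start codon and the true transcription start of these genes may lie elsewhere. A hotspot of any list overlapped 69 receptor promoters and had its centre in 13.

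Receptor windows held fewer hotspots than the rest of the genome in every library. Per Mb, 13R had 2.58 hotspots in the windows and 5.67 in the rest, B6 3.79 and 7.42, C3H 3.26 and 5.62, CAST 2.61 and 5.85, MOL 3.90 and 5.96, and PWD 3.82 and 5.51. The lowest value outside the windows (5.51) lay above the highest value inside them (3.90). The ratio of the 2 densities averaged 0.556 ± 0.103 (SD, n = 6), from 0.446 in CAST to 0.693 in PWD, and the mean log2 ratio was -0.87 (exact two-sided permutation test by sign flips, p = 0.03125, the smallest that 6 lists allow; below 0 in 6 of 6 lists). In the 19 F1 lists the windows held 1.96 to 4.35 hotspots per Mb (median 3.09) and the rest 3.99 to 7.49 (median 6.10). The F1 ratio averaged 0.515 ± 0.0869 (SD, n = 19), and its mean log2 was -0.98 (two-sided sign-flip permutation test with 100000 resamples, p = 1e-05, the smallest they can give; below 0 in 19 of 19 lists). The test takes the crosses as independent although many have a parent in common.

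Next to the windows the density was that of the rest. Flanks reaching from the window edges to 500 kb beyond them (66.9 Mb) held 6.16 ± 0.752 hotspots per Mb in the inbred lists and 6.18 ± 0.807 in the F1 lists (SD, n = 6 and 19), and the windows lay below their own flanks in 25 of 25 lists. The windows of vomeronasal receptor genes (29.7 Mb outside the olfactory windows) were lower still, at 2.01 ± 0.238 per Mb in the inbred and 1.77 ± 0.323 in the F1 lists. All 25 lists had more hotspots per Mb in olfactory than in vomeronasal windows; the mean ratio was 1.65 ± 0.230 in the inbred lists (mean log2 0.71, exact sign-flip permutation p = 0.03125, n = 6) and 1.73 ± 0.268 in the F1 lists (mean log2 0.77, sign-flip permutation p = 1e-05, the smallest 100000 resamples can give, n = 19). Both families hold near-identical gene copies; the handling of reads that match several copies is not stated in the labels, and no measure of it was used.

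**Figure D1:**
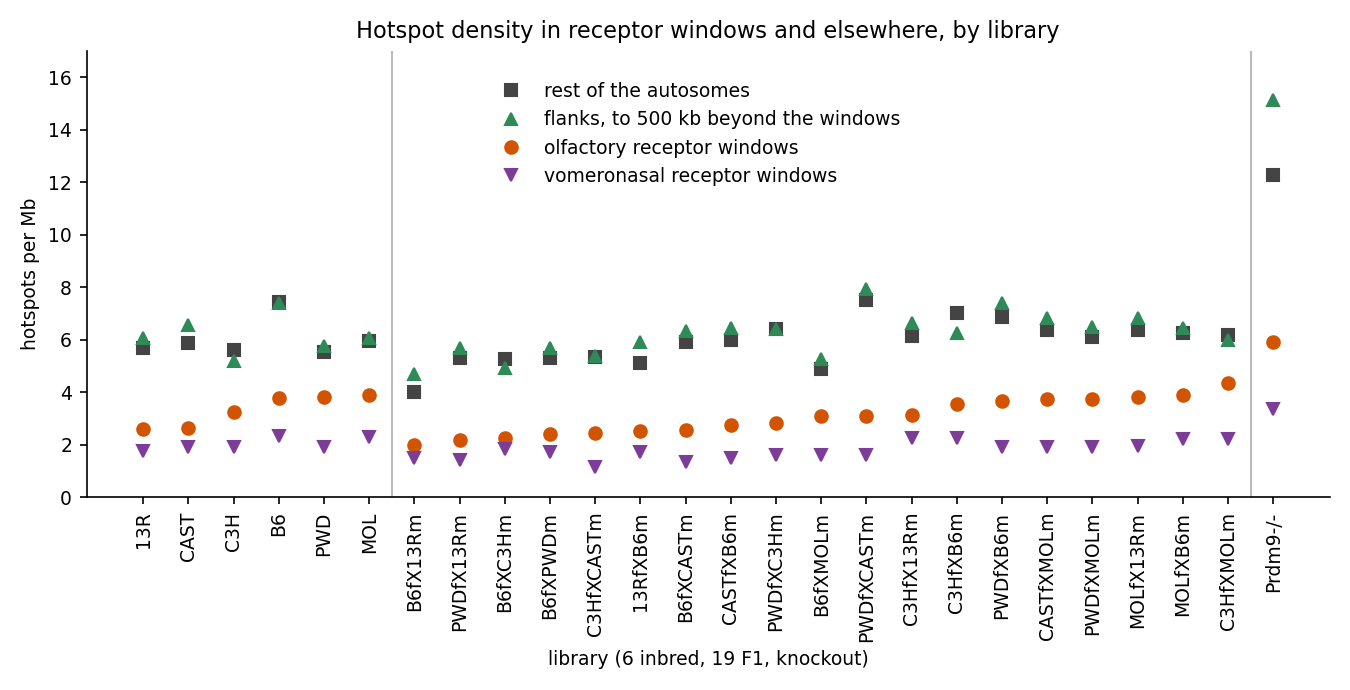
Hotspots per Mb (vertical axis) in each of 26 libraries (horizontal axis, ordered within inbred, F1 and knockout by the density in receptor windows), for olfactory receptor windows, vomeronasal receptor windows, flanks to 500 kb and the rest of the autosomes; each point is 1 library. In all libraries the olfactory windows (1.96 to 5.89 per Mb) lie below the flanks and the rest and above the vomeronasal windows.

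Without PRDM9 the windows were sparse as well. The Prdm9-/- list held 210 hotspots in the windows, 5.89 per Mb against 12.3 in the rest and 15.1 in the flanks. The ratio of windows to rest was 0.480, rank 16 of 26 from the highest, within the range of the 25 lists with PRDM9 (0.412 to 0.703). With windows of 10000 bp it was 0.262, against geometric means of 0.505 in the inbred and 0.468 in the F1 lists. There was 1 such library, so no test was made. Only 13 of its 210 hotspots lay less than 400 bp, centre to centre, from a hotspot of another list: 197 (93.8%, exact Clopper-Pearson 95% interval 89.6% to 96.7%) were in no other list, as were 93.9% in the rest of its autosomes. Intervals of this kind cover counting error only.

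Hotspot density fell with the number of receptor genes in a window. Windows with a single Olfr gene (30 windows, 3.03 Mb) had 0.896 ± 0.209 of the density of the rest in the inbred lists and 0.976 ± 0.181 in the F1 lists. Windows with 2 to 9 genes (32 windows) had 0.767 ± 0.170 and 0.801 ± 0.160, and windows with 10 to 49 genes (20 windows) 0.526 ± 0.110 and 0.426 ± 0.0785. The 7 windows with 50 or more genes, which span 14.7 Mb and hold 761 of the 1420 genes, had 0.424 ± 0.108 and 0.372 ± 0.101 (SD, n = 6 and 19). The largest class was below the single genes in every list, by a factor of 0.468 in the inbred lists (geometric mean; range 0.378 in 13R to 0.590 in C3H; exact sign-flip permutation p = 0.03125, n = 6) and of 0.376 in the F1 lists (0.287 in B6fXCASTm to 0.526 in CASTfXMOLm; sign-flip permutation p = 1e-05, the smallest 100000 resamples can give, n = 19). These size classes were set after the densities had been seen. Other protein-coding genes thinned out with cluster size too, from 11.6 per Mb around single genes and 13.8 in the next class to 5.33 and then 2.32 in the largest; their part in the result was not tested.

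In Prdm9-/- the same order was steeper. Around single receptor genes it had 50 hotspots, 1.34 times the density of its rest, then 1.05 and 0.385 in the middle classes, and 25 hotspots at 0.139 in the largest clusters. The largest class was at 0.103 of the single genes, below the lowest of the 25 other lists (0.287). Of its 210 hotspots, 99 (47.1%, exact interval 40.2% to 54.1%) lay inside or within 1000 bp of a protein-coding gene that is not an olfactory receptor, and 25 inside a receptor gene. An end of another protein-coding gene lay within 1000 bp of 70 (33.3%, exact interval 27.0% to 40.1%), against 0% to 8.46% of the window hotspots in the 25 lists with PRDM9. An end of a receptor gene lay within 1000 bp of 12.4%, inside the 6.25% to 18.7% of those lists. These Prdm9-/- shares were not set against the rest of its list, so they are not shown to be particular to receptor windows.

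**Figure D2:**
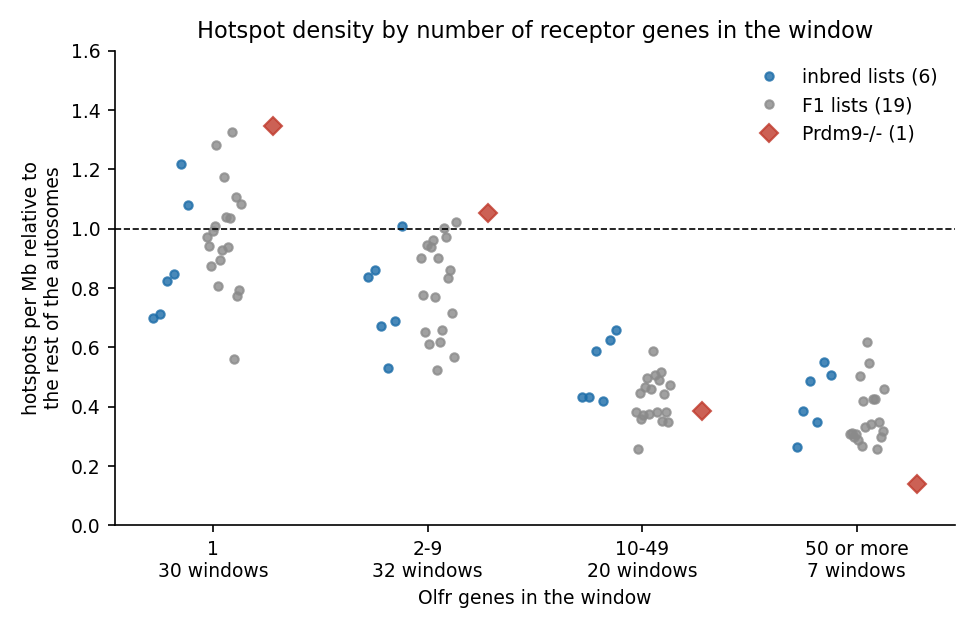
Hotspots per Mb relative to the rest of the autosomes of the same list (vertical axis) in windows grouped by their number of Olfr genes (horizontal axis); each point is 1 list, and the dashed line marks equal density. The points of the inbred and F1 lists lie between 0.560 and 1.33 around single genes. In windows of 50 or more genes they lie between 0.257 and 0.617, and Prdm9-/- is lowest at 0.139.

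Measured by distance from the nearest receptor gene, the sparse zone reached to 25000 bp. Distance and cluster size are linked in these windows, and their parts were not separated. Relative to all autosomes of the same list, the inbred lists had 0.536 ± 0.158 of the density up to 2000 bp from a gene, 0.572 ± 0.0945 from 2000 to 5000 bp, 0.394 ± 0.199 from 5000 to 10000 bp and 0.491 ± 0.104 from 10000 to 25000 bp. Between 25000 and 50000 bp they were back at 0.824 ± 0.101, and from 50000 to 500000 bp at 1.01 to 1.08. The F1 lists ran in parallel (0.396 to 0.502 up to 25000 bp, then 0.856). Prdm9-/- was much lower close to genes, at 0.0890 up to 2000 bp (6 hotspots) and 0.159 from 2000 to 5000 bp (14 hotspots), and rose to 0.677 between 10000 and 25000 bp and to 1.16 between 25000 and 50000 bp.

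**Figure D3:**
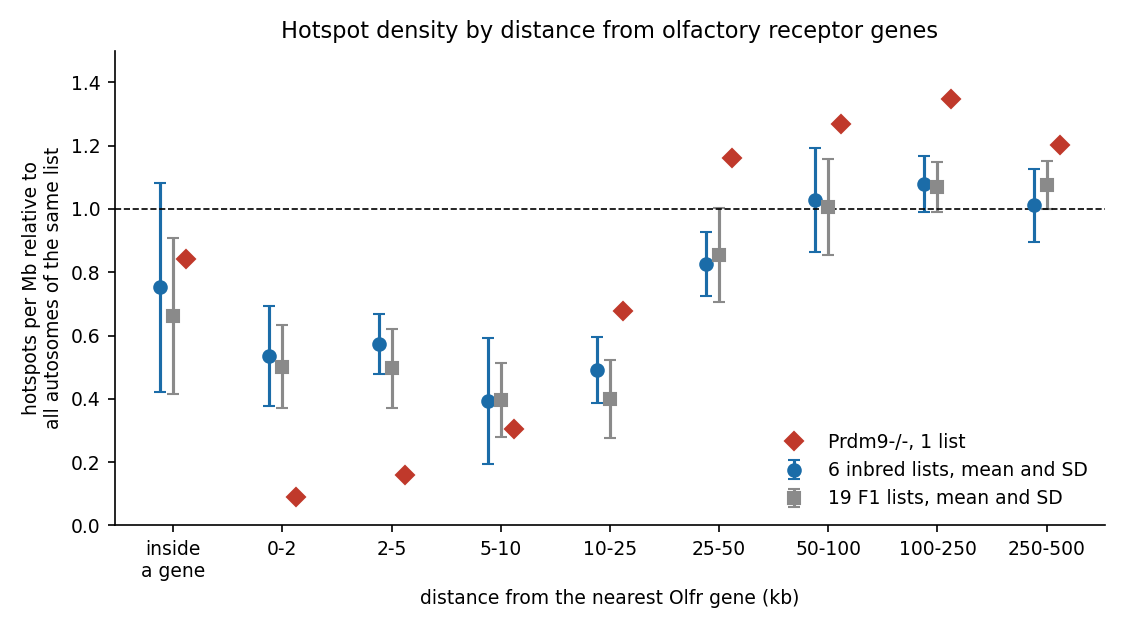
Hotspots per Mb relative to all autosomes of the same list (vertical axis) by distance from the nearest Olfr gene (horizontal axis, kb); circles and squares give the mean with SD of 6 inbred and 19 F1 lists and diamonds the single Prdm9-/- list. Density is lowest within 25 kb of a gene, and Prdm9-/- has its 2 lowest values (0.0890 and 0.159) just outside the genes but 0.842 inside them.

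Inside short receptor genes the Prdm9-/- list was not sparse, while inside longer ones it was. The 1231 receptor genes of up to 1200 bp, a length chosen after seeing the data (median gene length 945 bp), cover 1.13 Mb. Prdm9-/- had 21 hotspot centres in them, 18.6 per Mb (exact Poisson 95% interval 11.5 to 28.4), which is 1.52 times the density of its rest. In the 189 longer genes (1.31 Mb) it had 4, which is 0.249 times. MOL (1.78) and C3HfXMOLm (1.57) were above it in short genes. Within 2000 bp outside any receptor gene it had 6 centres in 5.53 Mb, 1.08 per Mb, so that the gene bodies were 17.2 times as dense as the DNA beside them. In the 25 lists with PRDM9 the same contrast ran from 0.350 (B6fX13Rm) to 4.29 (C3HfXCASTm), with a median of 1.53. These are single libraries and small counts, and no test was made.

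The 25 Prdm9-/- hotspots centred in receptor genes all lay in protein-coding receptor genes. Of these 25, 23 were in no other list, against 93.8% of all 210 window hotspots of the list and 93.9% in its rest. The strength of the 25 was ordinary, with a median percentile of 40.0 among all autosomal hotspots of the list. It ranged from 3.49 (Olfr691) to 86.8 (Olfr281). By cluster size, 8 were in windows with under 10 receptor genes, 13 in windows with 10 to 49, and 4 in windows with 50 or more; of all 210 window hotspots of the list, 50 were around single genes, 79 in windows with 2 to 9, 56 in those with 10 to 49 and 25 in the largest. A single cluster on chromosome 15, from Olfr288 to Olfr278-ps1 (12 receptor genes, 413 kb), held 5 of them, in Olfr284, Olfr283, Olfr282, Olfr281 and Olfr279. That window had 13 Prdm9-/- hotspots in all, against 0 to 4 in every other list. On chromosome 11 Olfr323, Olfr315 and Olfr314, from another single cluster, each held 1.

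Receptor promoters overlapped by Prdm9-/- hotspots had more CG than the others. There were 16, with a median GC content of 48.7% and a median of 5.5 CG in 300 bases, against 35% and 1 in the 926 not overlapped. The 57 receptor promoters overlapped in at least 1 list with PRDM9 had medians of 37.3% and 1. Olfr212 and Olfr750, printed above with 12 and 9 CG in capitals, belong to the first set and were printed for their high CG. The 16 ran from 1 to 13 CG in 300 bases. Olfr606, whose promoter holds a Prdm9-/- hotspot centre, had 3 CG and a GC content of 39.3%. Olfr212 was overlapped in 10 lists: Prdm9-/-, B6 and 8 of the 10 crosses with a B6 parent. By the 400 bp rule the Prdm9-/- hotspot there was in no other list, so the B6 and cross hotspots are separate ones. Olfr750 was overlapped in Prdm9-/- alone. The Prdm9-/- hotspot at Olfr750 was at percentile 77.3 and that at Olfr212 at percentile 10.3. The sequences are those of the reference strain, and the medians are given as a description, with no test.

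Among the crosses, those with a MOL parent had the highest ratios of window density to the rest. The 6 crosses with a MOL parent held 110 to 155 window hotspots (median 134.5) and the 13 others 70 to 130 (median 91). The ratio of windows to rest was 0.588 in CASTfXMOLm, 0.598 in MOLfX13Rm, 0.612 in PWDfXMOLm, 0.626 in MOLfXB6m, 0.631 in B6fXMOLm and 0.703 in C3HfXMOLm, and ran from 0.412 to 0.532 in the 13 crosses without MOL. The 2 sets did not overlap. The difference of the mean log2 ratios was 0.44, a factor of 1.35 (exact two-sided permutation of the 19 crosses, p = 3.69e-05, the smallest it allows; 0.000221 after Benjamini-Hochberg adjustment over the 6 parental strains). The other 5 strains gave factors of 0.890 to 0.973 with adjusted exact permutation p from 0.371 to 0.737. This contrast was added after seeing the data, and the crosses of a strain share that parent. Autosomal totals were 11968 to 15606 with a MOL parent and 9748 to 18270 without; the part of list length in the difference was not tested.

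**Figure D4:**
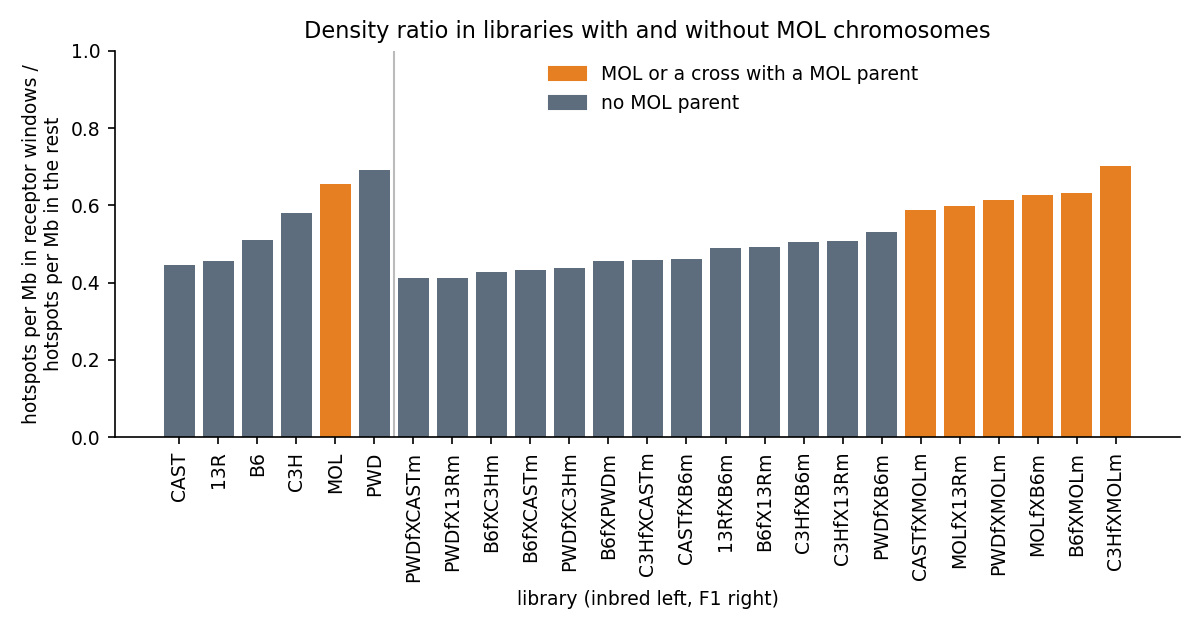
Ratio of hotspots per Mb in receptor windows to hotspots per Mb in the rest (vertical axis) in the 6 inbred and 19 F1 libraries (horizontal axis, ordered by the ratio within each set); each bar is 1 library. The 6 crosses with a MOL parent are the 6 highest F1 bars, while among the inbred lists PWD (0.693) is above MOL (0.655).

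Among the inbred lists MOL (0.655) was not the highest: PWD was at 0.693. The 6 crosses with a PWD parent nevertheless spanned 0.412 to 0.612, and the highest of them was the cross with MOL. The difference between MOL crosses and others varied with the distance from the genes. From 2000 to 5000 bp from a gene, MOL crosses had 0.480 to 0.769 of the density of all autosomes (median 0.652). Other crosses had 0.343 to 0.498 there (median 0.427). From 5000 to 10000 bp the ranges were 0.398 to 0.570 and 0.218 to 0.526 (medians 0.532 and 0.326). The ranges overlapped at both distances. From 10000 to 25000 bp the medians were 0.402 and 0.390, and from 25000 to 50000 bp 0.941 and 0.825. In the flanks, from 100000 to 250000 bp, both had medians of 1.05. In windows with 50 or more genes MOL crosses had 0.427 to 0.617 of the rest and other crosses 0.257 to 0.418, which did not overlap. In smaller windows the ranges overlapped, but MOL crosses again had the higher medians. These were 1.13 and 0.929 around single genes, 0.956 and 0.771 with 2 to 9 genes, and 0.498 and 0.381 with 10 to 49. Inside short receptor genes MOL had 12 hotspots, 10.6 per Mb (exact Poisson interval 5.49 to 18.6), its crosses 6 to 11, and the other crosses 1 to 7. In vomeronasal windows the MOL crosses (ratio to rest 0.303 to 0.354) lay within the range of the others (0.212 to 0.372), with medians of 0.323 and 0.280. Measured against vomeronasal windows in place of the rest, the log2 difference between MOL crosses and others was 0.24 (exact permutation p = 0.0349 over 19 crosses).

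The difference was not that of a single window. The mean count was higher in MOL crosses in 47 of the 89 windows, lower in 38 and equal in 4, and in no window did every MOL cross exceed every other cross. The window with the widest gap, Olfr543 to Olfr650-ps1 on chromosome 7, had 16 hotspots in MOL, 9 to 17 in its crosses (mean 12) and 2 to 9 in the other crosses (mean 4.85). Next came Olfr996 to Olfr1274 on chromosome 2 (means 11.2 and 7.23) and Olfr172 to Olfr209 on chromosome 16 (5.33 and 1.92). Without the first of these windows the log2 difference between crosses was 0.38 (exact permutation p = 3.69e-05). The windows with the widest gaps were not left out together. These windows were picked for their gap and are a description.

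Individual clusters differed in which strain used them. The biggest, Olfr996 to Olfr1274 on chromosome 2 (284 receptor genes in 4922 kb and only 3 other protein-coding genes), had 20 hotspots in C3H, 15 in B6, 12 in MOL, 9 in PWD, 6 in CAST and 3 in 13R, and 4 in Prdm9-/-. Its inbred mean was 2.20 per Mb. Olfr160 to Olfr986 on chromosome 9 (127 genes, 2577 kb) ran in another order, with 14 in PWD, 12 in CAST, 10 in MOL, 9 in C3H, 7 in B6 and 6 in 13R. The chromosome 7 cluster Olfr543 to Olfr650-ps1 (116 genes, 1830 kb) surrounds 6 genes of the beta-globin cluster (Hbb) and was denser than most large clusters, at 4.37 per Mb in the inbred and 3.88 in the F1 mean. These 3 windows were the only ones with a hotspot in all 26 lists.

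Other large clusters had fewer hotspots per Mb. Olfr9 to Olfr827 on chromosome 10 (69 genes, 1321 kb) had no hotspot in 13R, PWD or Prdm9-/- and 6 in B6. The 6 inbred lists together had 11 hotspots in Olfr467 to Olfr519 on chromosome 7 (52 genes, 1180 kb), 16 in Olfr24 to Olfr18 on chromosome 9 (51 genes, 1681 kb) and 13 in Olfr1444 to Olfr1505 on chromosome 19 (62 genes, 1158 kb). Olfr1275 to Olfr1319-ps1 on chromosome 2 and Olfr20 to Olfr412 on chromosome 11 had 11 and 9. Their inbred means, 1.35 to 1.87 per Mb with the chromosome 10 cluster, lay below that of every inbred list over all windows (2.58 to 3.90). On chromosome 17, Olfr90 to Olfr761 (47 genes), which includes 2 H2-M genes of the major histocompatibility complex, was less sparse at 4.48 per Mb. Olfr1513 to Olfr1507 on chromosome 14, next to a T-cell receptor alpha variable gene (Trav), had 4 hotspots in Prdm9-/- and none in 13R, B6, C3H or CAST. Of the 89 windows, 3 had no hotspot in any list and 27 none in Prdm9-/-; the 3 without any were Olfr291 to Olfr290, Olfr100 and Olfr752-ps1, with 1 or 2 receptor genes each. The annotated place of Olfr100 comes before the first hotspot of any list on chromosome 17, so its window could not be compared.

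In the crosses, window hotspots were also weaker than others; in the inbred strains the difference did not pass the test. Strength was taken as the percentile of the deposited score among the autosomal hotspots of the same list. The median percentile in the windows was 45.1 in 13R, 44.1 in B6, 43.2 in C3H, 52.2 in CAST, 54.0 in MOL and 34.0 in PWD. Against the rest this was a mean difference of -4.61 ± 7.26 percentile points (SD, n = 6; below 0 in 4 of 6 lists; exact sign-flip permutation p = 0.1875). In the F1 lists the medians were 36.5 to 50.4 and the difference -7.25 ± 4.13 (SD, n = 19; below 0 in 18 of 19; sign-flip permutation p = 1e-05, the smallest 100000 resamples can give). The share of strong hotspots was low in all of them: the strongest 10% of a list made up 6.23% ± 2.13 of window hotspots in the inbred and 5.99% ± 1.99 in the F1 lists, against 10.03% of the rest, and the share was below the rest in 25 of 25 lists. PWD had 3 of 136 in its strongest 10% (2.21%, exact interval 0.457% to 6.31%) and MOL 12 of 139 (8.63%, 4.54% to 14.6%). Window hotspots were narrower than others in 22 of the 25 lists, with mean medians of 1914 and 2003 bp in the inbred and 1820 and 1922 bp in the F1 lists. Prdm9-/- had a median percentile of 51.7.

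The strongest window hotspot of each list lay between percentiles 94.5 (B6fX13Rm) and 99.9 (C3HfX13Rm), and in 2 of the 25 lists with PRDM9 it was inside a receptor gene. In B6 it lay 6137 bp from Olfr267 on chromosome 4, at rank 101 of the list (percentile 99.4). In MOL it lay 3044 bp from Olfr722 on chromosome 14 (rank 77), and in PWD it was inside Olfr920 on chromosome 9 (rank 494). In 13R it was inside the zinc-finger gene Zkscan3 on chromosome 13 (rank 470), 46437 bp from Olfr1367, in C3H in the noncoding RNA gene Gm12865 on chromosome 4 (rank 312) and in CAST in Arhgef40 on chromosome 14 (rank 332). In B6fXPWDm, PWDfXB6m and PWDfXC3Hm it was in Gabbr1, a GABA receptor gene on chromosome 17, 15205 to 15257 bp from Olfr90 (ranks 154 to 297). The strongest of all by rank was in C3HfX13Rm, 36646 bp from Olfr215 on chromosome 6 (rank 19). In MOLfX13Rm it was inside Olfr1443 on chromosome 19 (rank 240). The 5 strongest of Prdm9-/- were not in receptor genes: 4 were on chromosome 13, in the histone gene H4c11 (rank 441), AK157302 (rank 737), Trim27 (rank 988) and Mfsd14b (rank 1073), and the first was on chromosome 7 in Rrm1, which encodes a ribonucleotide reductase subunit (rank 118).

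Hotspots of different lists were then joined into places when their centres lay less than 400 bp apart in a chain. The 2983 hotspots fell into 974 places, of which 474 were in 1 list only (197 of these from Prdm9-/-) and 28 in 10 or more. None was in all 26 lists and none in more than 3 inbred lists. The place in the most lists, 16, lay between receptor genes on chromosome 4 near Olfr267 (hotspots spanning 58789849 to 58793536), and was found in B6, C3H and every cross with either of them as a parent, at percentiles from 61.2 to 99.4. A place near Olfr523 on chromosome 7 (140177165 to 140180742) was in 15 lists, 13R, B6 and every cross of either; its centres form a chain, and those at its ends lie further apart than 400 bp. The next 3 were each in 13 lists: in Gabbr1 and near Olfr488, in MOL, PWD and every cross of either, and in Skp1, which encodes a ubiquitin ligase subunit, in B6, C3H and 11 of their crosses.

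Inside receptor genes there were 92 places. Olfr979 and its neighbour Olfr978 on chromosome 9 were in 12 lists each. Olfr978 was hit in CAST, MOL and every cross with either parent, at percentiles from 5.55 to 89.0, and Olfr979 in CAST, MOL and PWD and 9 of their crosses, at 4.75 to 81.2. Olfr979 is thereby one of the 2 places found in 3 inbred lists. Olfr44 on chromosome 9 and Olfr203 on chromosome 16 followed with 8 lists each, and Olfr157 on chromosome 4 with 7. MOL was among the inbred lists at all 5 of these genes. In all, MOL had 19 hotspots centred in receptor genes, 18 of them in protein-coding ones. Of the 19, 6 were in no other list, against 26.6% of all MOL window hotspots and 30.8% in its rest.

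No difference in sharing between strains was found between the windows and the rest. A window hotspot was shared with at least 1 other inbred list in 19.2% ± 10.6 of cases and one in the rest in 20.2% ± 11.4, a mean difference of -0.996 ± 1.96 percentage points (SD, n = 6; exact sign-flip permutation p = 0.28125; each list enters the shares of the others). The wide spread came from the strains. B6 and C3H shared 36 of the 116 C3H window hotspots (31.0%, exact interval 22.8% to 40.3%; 33.3% in the rest), MOL and PWD 20 of 136 (14.7%, 9.22% to 21.8%; 12.9%) and CAST and PWD 12 of 136 (8.82%, 4.64% to 14.9%; 11.9%). The other 12 pairs shared 0 to 2 hotspots each. For 13R and B6, 0 of 92 were shared, which allows a share of up to 3.26%, against 1.16% in the rest.

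Among the crosses, the share of hotspots in no other list was 3.25% in windows and 2.23% in the rest (mean difference 1.01 ± 1.77 percentage points, SD, n = 19; above 0 in 14 of 19), and a window hotspot was found in 5.13 ± 0.550 other lists on average against 5.54 ± 0.625 in the rest; these differences were not tested. Hotspots found in neither parent made up 17.1% ± 8.39 of F1 window hotspots and 18.1% ± 9.71 of the rest (difference -0.94 ± 2.82 percentage points, SD, n = 19; sign-flip permutation p = 0.163). The highest share was 29.2% in PWDfXB6m (38 of 130) and the lowest 1.12% in 13RfXB6m. Sites of the Prdm9-/- list accounted for 0.981% ± 1.65 of F1 window hotspots and 1.40% ± 1.22 of the rest (difference -0.42 ± 0.948, sign-flip permutation p = 0.0717, n = 19). That is 22 hotspots in 19 crosses, 9 of them in PWDfXB6m (6.92%, exact interval 3.21% to 12.7%, against 5.92% in its rest). Reciprocal crosses, which differ in which strain is the mother, shared 94.2% to 98.8% of the shorter list's window hotspots in the 5 pairs. In the rest they shared 94.3% to 99.0%.

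Strains differed in how many of their window hotspots came through in their crosses. For PWD the median over 6 crosses was 26.8% of its 136 window hotspots against 41.0% of its hotspots in the rest, and the windows were lower in 6 of 6 crosses. In PWDfXCASTm the shares were 22.1% and 38.0%, and in PWDfXB6m 40.4% and 46.2%. For C3H the medians were 30.6% and 37.1% (lower in 5 of 6), and for B6 20% and 20.8% (lower in 10 of 10, by over 5 points in B6fXC3Hm only). CAST, MOL and 13R went the other way in all 16 pairings of strain and cross: medians were 68.8% and 58.9% in CAST, 50.4% and 44.5% in MOL, and 60.9% and 58.2% in 13R. The crosses of a strain share its single inbred list, so these are descriptions with no test. PWD window hotspots were also the weakest (median percentile 34.0). Of the 136, 52 were in no other list (38.2%, exact interval 30.0% to 47.0%, against 32.0% of PWD hotspots in the rest). Those 52 had a median percentile of 15.4.

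**Figure D5:**
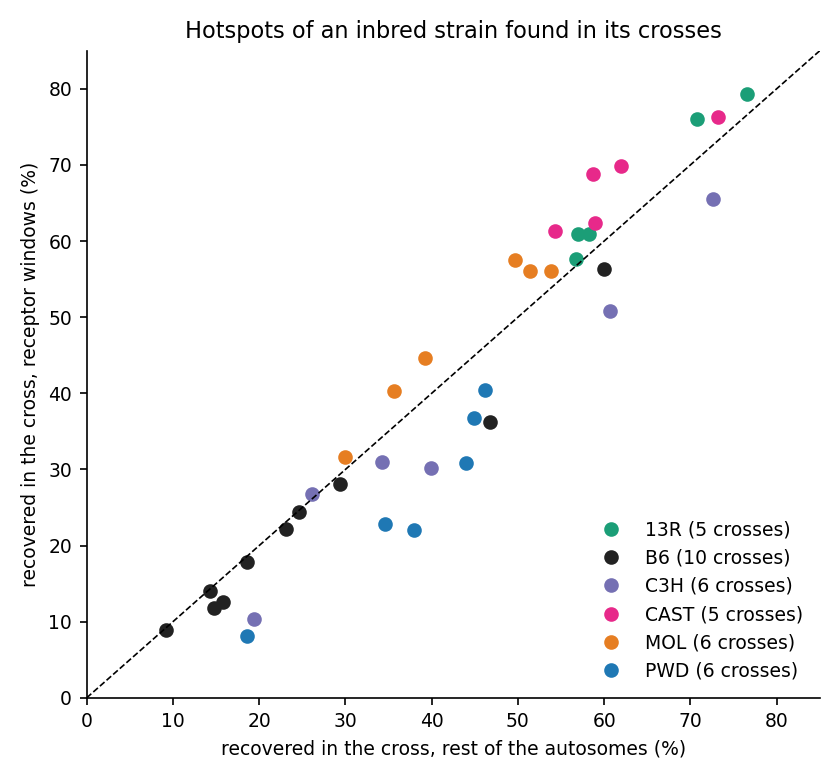
Share of an inbred strain's hotspots found in each of its crosses, in receptor windows (vertical axis, %) against the rest of the autosomes (horizontal axis, %); each point is 1 cross of 1 strain, crosses with 2 of the strains appear once for each, and the dashed line marks equal shares. All PWD points lie below the line and all CAST, MOL and 13R points above it.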

How the data were processed

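The data were DMC1 SSDS hotspot lists from mouse testis, 26 libraries with 1 for each genotype; the 5 input samples were not used. The authors deposited each list as chromosome, start, end and a hotspot strength, a score whose normalization, filters and correction the labels do not state; per the submitters' processing notes, mm10, CASAVA 1.8 and MACS2 2.0.10 were used. The files have no header, and starts were read as 0-based and printed 1-based. Of the deposited scores, 104 in 22 lists were below 0, so the score was used as a percentile within its own list only.

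Genes were taken from RefSeq (GRCm38.p6, the same build), windows of 50000 bp either side were merged, and a hotspot was assigned by its centre. The members, gene lists and comparisons were chosen with earlier results of these data known. Hotspots were called shared when centres lay less than 400 bp apart. Means over lists were tested by flipping signs (exact for 6 inbred lists, 100000 resamples for 19 crosses, two-sided, threshold 0.05), and parents by exact permutation of the crosses. Named are the 10 windows with the most receptor genes and those with Hbb, H2-M or Trav genes, the strongest window hotspot of each list, the 5 strongest of Prdm9-/-, and the 5 places in the most lists, in windows and inside receptor genes. Windows compared between MOL and other crosses, the Prdm9-/- hotspots inside genes, size classes, recovery in crosses and promoters were added after seeing the data. Intervals are 95% Clopper-Pearson or exact Poisson; a count of 0 allows up to 3. The scripts were tested on simulated data. Python 3.11.15, numpy 2.4.6, pandas 2.3.3, scipy 1.17.1 and matplotlib 3.10.9 were used. Alternatives changed the window, the reference region, the strength limit, the sharing rule and the lists included.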

Additional observations from a re-analysis of the deposited data

Results flagged for a closer look

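The ratio of hotspot density in receptor windows to the rest was higher in crosses with a MOL parent than in the other crosses, by 0.44 on the log2 scale (exact permutation p = 3.69e-05 over 19 crosses, 0.000221 adjusted over 6 parental strains). Over 12 alternative settings the difference was 0.24 to 0.63. The 5 other parental strains gave no adjusted exact permutation p below 0.371.

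Receptor genes on the X chromosome lie outside the autosomal comparison. Within 50000 bp of the 8 X-linked Olfr genes (0.673 Mb), 24 of the 26 lists had a hotspot, 83 over all lists, with a median of 3, a highest count of 8 in PWDfXC3Hm and none in CAST and B6fXCASTm. Unlike the autosomal windows, these were not sparse in every list: they held 0 to 11.9 hotspots per Mb (median 4.46) against 3.12 to 7.35 on the whole X chromosome (median 4.88), and were above the X in 11 lists and below it in 15. The difference between X-linked and autosomal windows was not tested.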

How the results depend on the processing

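The log2 density ratio stayed below 0 in the inbred and F1 lists under every alternative except against vomeronasal windows, where it was 0.71 in inbred lists (exact permutation p = 0.03125), 0.77 in F1 lists and 0.81 in Prdm9-/-. In Prdm9-/- it was -1.06 as reported, -1.93 with windows of 10000 bp, -0.68 with 100000 bp, -1.36 against flanks and -1.46 against windows of other protein-coding genes. Leaving out each inbred list gave -0.93 to -0.81 (5 lists allow an exact permutation p of 0.0625 at best), strength differences of -6.35 to -2.29 and sharing differences of -1.44 to -0.351.

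The inbred strength difference passed the test among the strongest 5000 hotspots (-7.09) and the stronger 50% of each list (-9.45; exact permutation p = 0.03125 for both) and was 4.76 against vomeronasal windows (exact permutation p = 0.406), where the F1 difference was -0.798 (permutation p = 0.662). The inbred sharing difference was 1.70 with windows of 10000 bp, 0.670 with 100000 bp and 0.0340 in the stronger 50%, and passed no test. Hotspots in neither parent differed by -1.73 with centres under 1000 bp apart (permutation p = 0.0210) and by -1.66 without C3H crosses (permutation p = 0.0335).

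The difference at Prdm9-/- sites in crosses rests on 22 hotspots and turned with the setting. It passed the test at -1.19 with windows of 10000 bp, -0.649 with coding receptor genes, -0.726 against flanks and -0.591 against coding windows. Other passing values were -0.496 without the Hbb window (added after seeing the data), -0.751 without CAST crosses and -0.493 without PWD crosses. In the strongest 5000 it was -0.0910 ± 0.0525 and in the stronger 50% -0.302 ± 0.114 (SD, n = 19). Those tests passed too but cannot decide, because a window share at its floor of 0 leaves only values of 0 or below. The difference was 0.0779 with 100000 bp, 0.434 with any overlap, 0.389 with overlap of 50% of both, and 1.29, past the test, with centres under 1000 bp apart. The cause was not tested.

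Samples of different groups could not be paired, because each genotype has 1 library and no replicate numbers link them. Windows and rest were compared within each list, so the sign-flip tests are paired by list. Read depth is unknown, counts per window are small, and no genome or mappability track was used.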
